A study of Mus musculus with 6 samples.

Results

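The 10 genes described here carry phosphate across renal cell membranes, hold the transporters at the brush border, activate or inactivate vitamin D, or receive the hormone FGF23. They were taken by name from a fixed list (Slc34a1, Slc34a3, Slc20a1, Slc20a2, Pdzk1, Kl, Fgfr1, Cyp27b1, Cyp24a1 and Cyp27a1), and all 10 were among the 24422 genes counted. RNA-seq was performed on whole kidneys of C57BL/6 wild type pups at postnatal day 15, with 3 control kidneys and 3 kidneys of the iron-deficient group (FeD), 1 library each. Dams of both groups were 8 weeks old. Control dams received a diet with 220 ppm iron, and FeD dams received a diet with 2 to 6 ppm iron from 1 month before mating until the pups were collected, according to the labels. The labels call the kidneys biological replicates but give neither litter nor sex, so litter and diet cannot be told apart. P values set the difference between the groups against the spread of these 6 kidneys within their groups. Gene counts summed to between 16189041 and 20374327 per control kidney and to between 13732173 and 20853293 per FeD kidney.

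The proximal tubule reclaims filtered phosphate through the sodium-phosphate cotransporters Npt2a (Slc34a1) and Npt2c (Slc34a3), which sit in the brush border. Parathyroid hormone and the bone hormone FGF23 lower the amount of these transporters, and FGF23 signals through FGF receptors bound to the coreceptor klotho (Kl). The same tubule makes the active hormone 1,25-dihydroxyvitamin D with the mitochondrial enzyme Cyp27b1 and breaks it down with Cyp24a1. Parathyroid hormone raises Cyp27b1, whereas FGF23 and the active hormone itself lower Cyp27b1 and raise Cyp24a1.

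In FeD kidneys both brush border phosphate transporters, the scaffold Pdzk1 and the coreceptor Kl fell, while Cyp27b1 and Cyp27a1 rose. Slc34a3 was 25.6-fold lower and Slc34a1 was 4.67-fold lower. Cyp27b1 was 12.3-fold higher. The housekeeping phosphate transporters Slc20a1 and Slc20a2, Cyp24a1 and Fgfr1 were higher by less than 2-fold. A call required both an adjusted P below 0.05 and a 2-fold difference in either direction. By this rule 2 of the 10 genes were higher and 4 were lower, where 4.34% of the 15145 tested genes were higher and 5.69% lower. All 10 passed the filter on low counts. On adjusted P alone 6 of the 10 were higher and 4 lower, where 22.4% of tested genes were higher and 23.3% lower (45.7% in all). The control and FeD ranges of normalized counts did not overlap in any of the 10 genes, as in 58.1% of tested genes. In whole kidney, fewer cells of a type and less RNA per cell cannot be told apart.

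**Figure D1:**
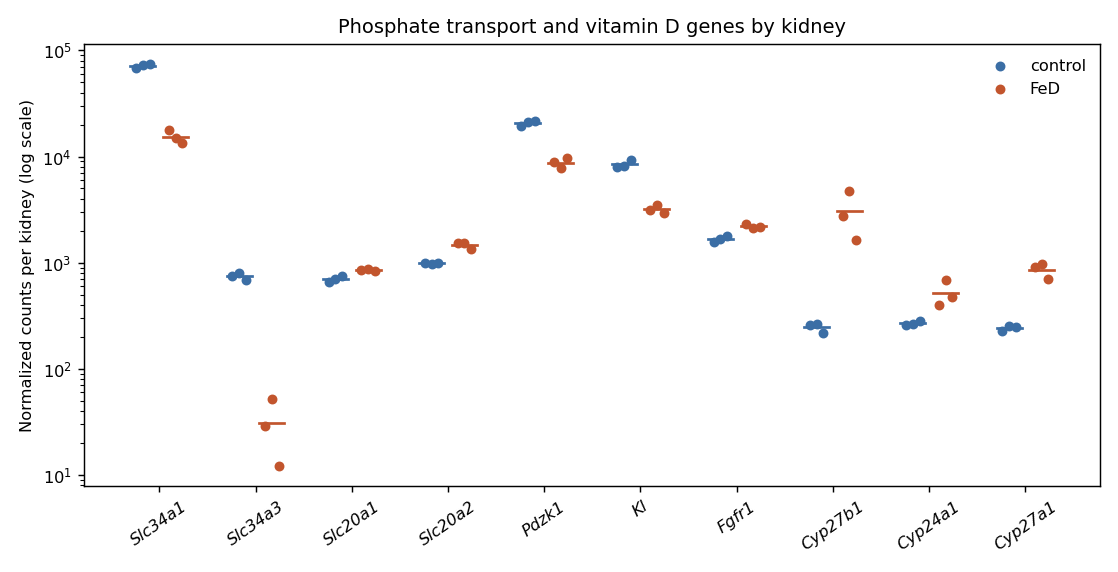
Normalized counts (vertical axis, log scale) of the 10 genes in the 3 control (blue) and 3 FeD (orange) kidneys, each point 1 kidney and each line the group mean. FeD points lie below control for Slc34a1, Slc34a3, Pdzk1 and Kl and above control for the other 6 genes, with the widest FeD scatter for Slc34a3 and Cyp27b1.

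The 250 bases before the transcription start are shown for the pair of transporters that fell and for the enzyme with the largest rise. Capitals mark letters searched for on both strands, namely GTTAAT (the half-site of HNF1 factors), AGGTCA (the half-site of many nuclear receptors), the CCAAT box, the TATA box letters TATAAA, and ACGTG (the core of the hypoxia response element, which is counted on both strands where it stands in a palindrome). Sequences are from RefSeq on GRCm38.p6 and run 5′ to 3′ on the gene's strand, at chr13:55399398-55399647 (plus strand) for Slc34a1, chr2:25234235-25234484 (minus strand) for Slc34a3 and chr10:127047996-127048245 (plus strand) for Cyp27b1.
Slc34a1: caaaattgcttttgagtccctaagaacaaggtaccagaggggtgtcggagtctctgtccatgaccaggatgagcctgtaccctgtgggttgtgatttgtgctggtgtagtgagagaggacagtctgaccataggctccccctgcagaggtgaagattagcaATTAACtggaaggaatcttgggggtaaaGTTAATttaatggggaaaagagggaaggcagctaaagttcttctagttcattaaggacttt
Slc34a3: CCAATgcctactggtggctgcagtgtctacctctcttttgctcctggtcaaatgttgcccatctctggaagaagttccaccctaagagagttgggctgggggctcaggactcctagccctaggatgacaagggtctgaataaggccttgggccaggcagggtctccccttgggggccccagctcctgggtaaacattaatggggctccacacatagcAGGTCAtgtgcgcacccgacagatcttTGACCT
Cyp27b1: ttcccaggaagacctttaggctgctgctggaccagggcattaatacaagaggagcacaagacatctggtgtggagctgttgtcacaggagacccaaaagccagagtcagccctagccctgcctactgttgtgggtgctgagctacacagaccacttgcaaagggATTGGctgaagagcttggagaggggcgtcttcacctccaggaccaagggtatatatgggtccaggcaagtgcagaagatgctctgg
The Slc34a1 window held GTTAAT once on each strand, between 89 and 56 bases before the start, and 6.43% of 32851 promoter windows of this length held it. The Slc34a3 window held AGGTCA once on each strand within the last 33 bases, and 14.0% of windows held that motif. A CCAAT box lay 86 to 82 bases before the Cyp27b1 start on the minus strand, and 33.8% of windows held one. None of these 3 windows held TATAAA (12.4% of windows) or the hypoxia core ACGTG (16.6%). Other spellings of a TATA box were not searched for, and the Cyp27b1 window holds the letters tatatat. A match describes the letters in the window and not a bound site. The promoter table held 7 of the 10 genes, some with more than 1 start. Among these 7, GTTAAT was found for 1 gene, CCAAT for 5 and TATAAA for 0. AGGTCA was found for 3 genes (Slc34a3, Pdzk1 and Slc20a1) and ACGTG for 2 (Pdzk1 and Slc20a1).

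Slc34a1, the main phosphate transporter of the brush border, lies at chr13:55501009-55516056 (mm9, plus strand, 14 exons). It had 68180, 73070 and 74320 normalized counts in control kidneys 1 to 3 and 17780, 14940 and 13460 in FeD kidneys 1 to 3. Every FeD kidney was far below every control kidney, and the nearest kidneys of the groups differed 3.84-fold. The means were 71850 ± 3245 (SD, n = 3) in control and 15390 ± 2194 (SD, n = 3) in FeD, a log2 fold change of -2.22 (SE 0.12, adjusted P = 1.7e-05, edgeR quasi-likelihood test with Benjamini-Hochberg adjustment). Slc34a1 ranked 6 among all tested genes by level in control kidneys. It took between 0.388% and 0.410% of all counts in a control library and between 0.0747% and 0.0996% in a FeD library. The profilin gene Pfn3, which runs in the opposite direction, covers 5.45% of its exon bases, and in no kidney did Pfn3 exceed 1.89% of the Slc34a1 count.

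Slc34a3, the second brush border transporter, lies at chr2:25084418-25089884 (mm9, minus strand, 14 exons). Its normalized counts were 752.8, 802.4 and 688.9 in control kidneys and 29.0, 52.0 and 12.1 in FeD kidneys, from 29, 40 and 14 reads. All 3 FeD kidneys were near the bottom of the measured range, and they spread widely among themselves, with a coefficient of variation of 64.5% against 7.61% in control. The log2 fold change was -4.68 (SE 0.33, adjusted P = 4.4e-05, edgeR), from a mean of 748.1 ± 56.9 to 31.0 ± 20.01 (SD, n = 3 each). This was the 11th largest fall among the 15145 tested genes.

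The other sodium-phosphate transporters, Pit-1 (Slc20a1) and Pit-2 (Slc20a2), belong to a separate family that most cells use to take up phosphate. Slc20a2 (chr8:23587172-23680079, mm9, plus strand) had 998.4, 971.7 and 999.6 normalized counts in control kidneys and 1527, 1539 and 1360 in FeD kidneys. The 3 FeD kidneys were all higher, with a log2 fold change of 0.57 (SE 0.07, adjusted P = 0.00042, edgeR) and means of 989.9 ± 15.7 and 1476 ± 100.2 (SD, n = 3 each). For Slc20a1 (chr2:129024500-129037352, mm9, plus strand) the control kidneys had 655.0, 701.7 and 745.0 and the FeD kidneys 859.2, 867.7 and 839.4 normalized counts. The FeD kidneys lay close together and just above the highest control kidney, a log2 fold change of 0.29 (SE 0.08, adjusted P = 0.016, edgeR). Without control kidney 1 or control kidney 2 the adjusted P of Slc20a1 was 0.079 or 0.066 (edgeR). Exons of both genes overlap genes on the opposite strand, by 8.1% of bases for Slc20a1 and 4.93% for Slc20a2, and those genes were not analysed here.

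Levels of different genes were compared per kilobase of exon. The 4 transporters together had 22810, 24420 and 24790 normalized counts per kilobase in control kidneys and 6347, 5441 and 4891 in FeD kidneys. Slc34a1 supplied most of this sum in both groups, but its share was 96.9% to 97.2% in control and 89.0% to 90.8% in FeD. The share of Slc20a2 was 1.09% to 1.20% in control and 6.6% to 7.75% in FeD. The share of Slc34a3 was 1.18% to 1.40% in control and 0.105% to 0.405% in FeD, so that Slc34a3 stood above Slc20a2 and Slc20a1 in control and below both in FeD. The ratio of Slc34a1 to Slc34a3 per kilobase was 69.2, 69.6 and 82.5 in control kidneys and 468.4, 219.7 and 850.9 in FeD kidneys. These ratios do not overlap between the groups, and no test was run on them, since 3 kidneys against 3 cannot give an exact permutation P below 0.1.

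Pdzk1, a scaffold with PDZ domains that holds Npt2a and other carriers at the brush border, lies at chr3:96633207-96674849 (mm9, plus strand, 13 exons). It had 19560, 21190 and 21510 normalized counts in control kidneys and 8791, 7850 and 9721 in FeD kidneys. All FeD kidneys were lower than all control kidneys, with a log2 fold change of -1.24 (SE 0.1, adjusted P = 6.7e-05, edgeR) and means of 20750 ± 1044 and 8787 ± 935.7 (SD, n = 3 each). When edgeR tested for a change larger than 2-fold, the adjusted P of Pdzk1 was 0.11. Cd160 and Gpr89, which run in the opposite direction, cover 39.4% of its exon bases, and they had at most 0.165% and 4.22% of the Pdzk1 count in any kidney. Whether reads on the shared bases were counted is not known, so the level of Pdzk1 per kilobase may be too low. Per kilobase, Slc34a1 was 4.02, 3.98 and 3.98 times the level of Pdzk1 in control kidneys and 2.33, 2.19 and 1.60 times in FeD kidneys.

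Cyp27b1, the 1-alpha-hydroxylase that makes active vitamin D, lies at chr10:126485306-126490062 (mm9, plus strand, 10 exons). Its normalized counts were 257.0, 266.7 and 219.0 in control kidneys and 2773, 4711 and 1643 in FeD kidneys. Each FeD kidney was far above the control range, and the lowest FeD kidney was 6.16-fold above the highest control kidney. The log2 fold change was 3.62 (SE 0.36, adjusted P = 0.00019, edgeR), from 247.6 ± 25.3 to 3042 ± 1552 (SD, n = 3 each). FeD kidneys differed 2.87-fold among themselves, against 1.22-fold for control kidneys. The rise ranked 40 among the tested genes.

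Cyp24a1, the 24-hydroxylase that starts the breakdown of vitamin D, lies at chr2:170308208-170322645 (mm9, minus strand, 12 exons). It had 258.0, 264.5 and 280.4 normalized counts in control kidneys and 403.1, 684.6 and 470.6 in FeD kidneys. FeD kidneys were all higher, and the highest of them was again kidney 2. The log2 fold change of 0.95 (SE 0.18, adjusted P = 0.0037, edgeR) stayed just under 2-fold, with means of 267.6 ± 11.5 and 519.4 ± 146.9 (SD, n = 3 each). It passed 2-fold without FeD kidney 1 (log2 fold change 1.12) or FeD kidney 3 (1.02) and was 0.73 without FeD kidney 2. Of its exon bases, 2.33% overlap the opposite-strand gene Pfdn4, whose total count was 23.5% to 73.2% of the Cyp24a1 count and whose log2 fold change was -0.15 (adjusted P = 0.45, edgeR). How many reads fell on the shared bases cannot be told from gene counts.

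Cyp27a1, a sterol 27-hydroxylase that can also hydroxylate vitamin D at position 25, lies at chr1:74760148-74784464 (mm9, plus strand, 9 exons). Control kidneys had 228.3, 251.2 and 245.7 normalized counts and FeD kidneys had 908.3, 967.8 and 696.0. The groups were well separated, with a log2 fold change of 1.82 (SE 0.13, adjusted P = 5.2e-05, edgeR) and means of 241.7 ± 12.0 and 857.4 ± 142.8 (SD, n = 3 each). Per kilobase of exon, Cyp27b1 was 1.38, 1.40 and 1.08 times the level of Cyp24a1 in control kidneys and 9.51, 9.52 and 4.83 times in FeD kidneys. Against Cyp27a1, Cyp27b1 stood at 0.827, 0.780 and 0.655 times its level in control kidneys and at 2.24, 3.58 and 1.73 times in FeD kidneys. Thus Cyp27b1 was below Cyp27a1 in every control kidney and above it in every FeD kidney.

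**Figure D2:**
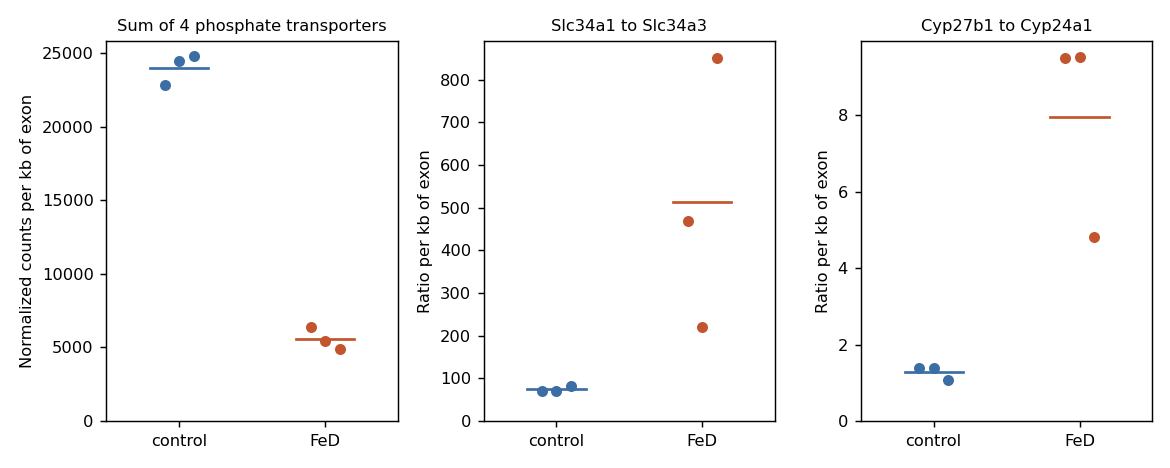
Each point is 1 kidney and each line a group mean: the summed level of the 4 phosphate transporters (left, normalized counts per kb of exon), the ratio of Slc34a1 to Slc34a3 (middle) and the ratio of Cyp27b1 to Cyp24a1 (right), both per kb of exon. The transporter sum is 22810 to 24790 in control and 4891 to 6347 in FeD, and both ratios are higher in all 3 FeD kidneys, with wide scatter.

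Kl, which encodes the FGF23 coreceptor klotho, lies at chr5:151755182-151796384 (mm9, plus strand, 5 exons). It had 7915, 8145 and 9242 normalized counts in control kidneys and 3127, 3516 and 2936 in FeD kidneys. All FeD kidneys were lower, with a log2 fold change of -1.40 (SE 0.09, adjusted P = 3.9e-05, edgeR) and means of 8434 ± 709.1 and 3193 ± 295.7 (SD, n = 3 each). Fgfr1, the receptor that klotho converts into an FGF23 receptor, lies at chr8:26624126-26686186 (mm9, plus strand), where Gm16159 on the other strand covers 1.55% of its exon bases. Its normalized counts were 1580, 1668 and 1791 in control and 2319, 2108 and 2154 in FeD kidneys. Here the FeD kidneys were slightly above the control kidneys, with a log2 fold change of 0.39 (SE 0.07, adjusted P = 0.0025, edgeR). Per kilobase, Kl was 7.9, 7.7 and 8.14 times the level of Fgfr1 in control kidneys and 2.13, 2.63 and 2.15 times in FeD kidneys.

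**Figure D3:**
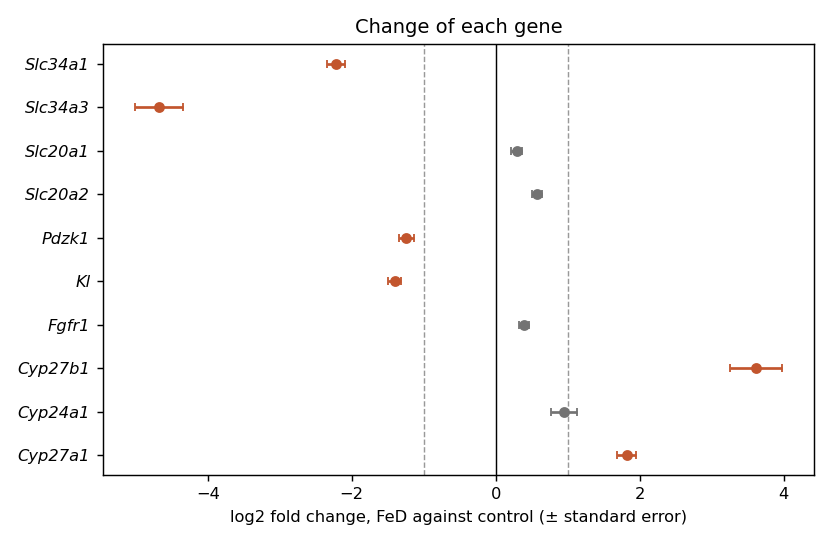
The log2 fold change of each gene in FeD against control kidneys (horizontal axis), with bars of 1 standard error and dashed lines at a 2-fold change. Genes called at an adjusted P under 0.05 and 2-fold are orange and the others grey; Slc34a3 at -4.68 and Cyp27b1 at 3.62 lie farthest out, and Cyp24a1 at 0.95 lies just inside the line.

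Ordered by level per kilobase of exon, control kidneys ran from Slc34a1 (23290 ± 1052 normalized counts per kilobase, SD, n = 3) through Pdzk1, Kl, Slc34a3, Slc20a2, Fgfr1, Cyp27a1, Slc20a1 and Cyp27b1 to Cyp24a1 (75.2 ± 3.24). Neighbours in this order had separate ranges except Cyp27a1 and Slc20a1. In FeD kidneys the order was Slc34a1 (4989 ± 711), Pdzk1, Cyp27b1, Kl, Cyp27a1, Slc20a2, Fgfr1, Slc20a1, Cyp24a1 and Slc34a3 (13.2 ± 8.49). Ranges overlapped between Cyp27b1 and Kl, between Cyp27a1 and Slc20a2, and between Slc20a1 and Cyp24a1. Cyp27b1 thus moved from rank 9 to rank 3, and Slc34a3 moved from rank 4 to rank 10.

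Within the FeD group, 7 of the 10 genes were highest in kidney 2, among them Cyp27b1, Cyp24a1, Cyp27a1, Slc34a3 and Kl. Kidney 3 was the lowest for 7 genes, among them both Slc34 transporters, Cyp27b1, Cyp27a1 and Kl. The ratio of the highest to the lowest kidney was wider in FeD than in control for 8 of the 10 genes. Of the 6 libraries, FeD kidney 2 had the smallest total (13732173 counts) and FeD kidney 3 the largest (20853293), and the part of depth in this order was not tested.

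Genes whose levels followed these most closely were sought by Pearson correlation of log2 CPM over the 6 kidneys among the 12932 tested genes averaging 50 normalized counts or more. For Slc34a1 they were Ppox, an enzyme of heme synthesis, Aldh7a1, an aldehyde dehydrogenase, and Mapt, which encodes the microtubule protein tau (all r = 0.999). The genes nearest to Cyp27b1 were Rnf103 (r = 0.999), 2610008E11Rik (r = 0.999) and Inpp5k (r = 0.998). Cyp24a1 was followed by Clip3 (r = 0.995), Cyld (r = 0.993) and 5730455P16Rik (r = 0.992), and Kl by Mmp15 (r = 0.999), Tln2 (r = 0.999) and Chchd3 (r = 0.998). These values describe 6 kidneys that fall into 2 diet groups, so any gene that separates the groups steadily can score high. The correlation does not measure the size of a change. Log2 fold changes of the closest genes were -0.53 for Ppox, 0.46 for Rnf103, 1.04 for Clip3 and -0.91 for Mmp15. Those of Slc34a1, Cyp27b1, Cyp24a1 and Kl were -2.22, 3.62, 0.95 and -1.4.

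Other phosphate carriers and their partners moved in both directions. Of 16 tested genes in this list, 3 were called higher and 1 lower at 2-fold, where 4.34% of all tested genes were higher and 5.69% lower. On adjusted P alone 6 were higher and 6 lower (22.4% and 23.3% of all tested genes), and the median log2 fold change was -0.03, against -0.002 over all tested genes. Slc17a4, of the organic anion and phosphate transporter family, had 37.4, 53.1 and 48.1 normalized counts in control kidneys and 251.1, 252.0 and 227.1 in FeD kidneys. It rose in every FeD kidney, with a log2 fold change of 2.40 (SE 0.16, adjusted P = 3.9e-05, edgeR). Its relative Slc17a1 rose by less than 2-fold (log2 fold change 0.87, adjusted P = 0.00016, edgeR), and Slc17a3 fell (-1.09, adjusted P = 0.00088, edgeR). Slc34a2, the transporter known mainly from lung and gut, and Slc17a2 were the other genes called higher, at log2 fold changes of 1.28 and 1.14 (adjusted P = 0.0045 and 0.011, edgeR). Slc34a2 per kilobase reached 132.3 ± 52.3 in FeD (SD, n = 3), against 4989 ± 711 for Slc34a1. The scaffolds NHERF1 (Slc9a3r1) and NHERF2 (Slc9a3r2) fell by 0.50 and 0.43 on the log2 scale (adjusted P = 0.0051 and 0.0013, edgeR). Xpr1, the phosphate exporter, had a log2 fold change of -0.02 (SE 0.07, adjusted P = 0.84, edgeR).

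Receptors of the hormones that control these transporters also differed. Pth1r, the parathyroid hormone receptor, had 8898, 9300 and 9299 normalized counts in control kidneys and 3252, 3136 and 2864 in FeD kidneys. Its fall was uniform across the FeD kidneys, with a log2 fold change of -1.57 (SE 0.07, adjusted P = 8.9e-06, edgeR). Of 12 tested genes for FGF23 and parathyroid hormone signaling, 2 were called lower and 0 higher by edgeR at 2-fold (Pth1r and the klotho relative Lctl, log2 fold change -2.12, adjusted P = 0.0036), against 5.69% and 4.34% of all tested genes. On adjusted P alone 4 were higher and 5 lower, against 22.4% and 23.3%. Lctl rested on few reads, 44, 27 and 44 in control kidneys and 8, 11 and 5 in FeD kidneys. Only 1 gene of this list was called lower with at least 10 counts required in every kidney, or in the test against a 2-fold change. Without control kidney 3, 1 gene of this list was called higher. Among the other FGF receptors, Fgfr2 was higher (log2 fold change 0.45, adjusted P = 0.00091, edgeR), while Fgfr4 and Fgfr3 were lower (-0.66 and -0.43, adjusted P = 0.0021 and 0.039, edgeR). Casr, the calcium-sensing receptor, was higher by 0.48 on the log2 scale (adjusted P = 0.00093, edgeR). Fgf23 itself, a hormone made mainly by bone, had 0 reads in each control kidney and 3, 5 and 1 reads in FeD kidneys, too few to be tested. A control count of 0 allows up to 0.147 to 0.185 CPM. Pth had 0 reads in every kidney.

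Of 10 genes that FGF receptors and the ERK kinases induce, 1 was called higher and 0 lower at 2-fold by edgeR, against 4.34% and 5.69% of all tested genes. On adjusted P alone 5 were higher and 0 lower, against 22.4% and 23.3%, around a median log2 fold change of 0.37. Without FeD kidney 1 or FeD kidney 2, 2 were called higher. Egr1, an immediate early transcription factor, had 231.1, 249.0 and 294.6 normalized counts in control kidneys and 1198, 548.2 and 664.1 in FeD kidneys. It was higher in every FeD kidney (log2 fold change 1.64, SE 0.27, adjusted P = 0.002, edgeR). Spred2 and Etv5, which are targets and modulators of this pathway, rose by less than 2-fold, with log2 fold changes of 0.54 and 0.63 (adjusted P = 0.00068 and 0.001, edgeR).

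Receptor genes for the uptake of 25-hydroxyvitamin D into the tubule cell were lower by less than 2-fold. Lrp2 (megalin), Cubn (cubilin) and Amn (amnionless), which form the endocytic receptor for filtered vitamin D binding protein, had log2 fold changes of -0.48, -0.45 and -0.82 (adjusted P = 0.0019, 0.0022 and 0.00072, edgeR). Dab2, the adaptor that megalin uses in endocytosis, did not pass the edgeR test (-0.02, adjusted P = 0.93). The mitochondrial electron carriers that serve Cyp27b1, Cyp24a1 and Cyp27a1 did not pass the test. Fdx1 (ferredoxin) had a log2 fold change of 0.13 (SE 0.16, adjusted P = 0.52, edgeR), and Fdxr, its reductase, had -0.09 (SE 0.18, adjusted P = 0.72, edgeR). Vdr, the vitamin D receptor, was lower by a small margin (-0.24, SE 0.07, adjusted P = 0.027, edgeR). Of 14 genes tested in this list, 1 was called lower (Rxrg, at a low level) and 0 higher by edgeR at 2-fold, against 5.69% and 4.34% of all tested genes. The Rxrg call was lost with DESeq2, with either other filter on low counts, in the test against a 2-fold change, and without any 1 control kidney or FeD kidney 1. On adjusted P alone 6 were lower and 0 higher, against 23.3% and 22.4%.

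Of 7 tubular genes that vitamin D is known to control, 0 were called by edgeR at 2-fold with all kidneys. Of all tested genes 4.34% were called higher and 5.69% lower by this rule. With 1 kidney left out, 1 of the 7 was called lower without control kidney 1 or control kidney 2. Likewise 1 of the 7 was called higher without control kidney 3 or FeD kidney 3. Without the 2-fold rule, 3 were higher and 2 lower, against 22.4% and 23.3% of all tested genes. Trpv5 and Trpv6, the apical calcium channels, were higher by 0.95 and 0.67 on the log2 scale (adjusted P = 0.0059 and 0.022, edgeR). Slc8a1, the sodium-calcium exchanger, and Calb1, the calcium buffer calbindin-D28k, were lower (-0.94 and -0.66, adjusted P = 0.00089 and 0.015, edgeR). S100g, the smaller calbindin, had a log2 fold change of 0.13 (SE 0.08, adjusted P = 0.22, edgeR).

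**Figure D4:**
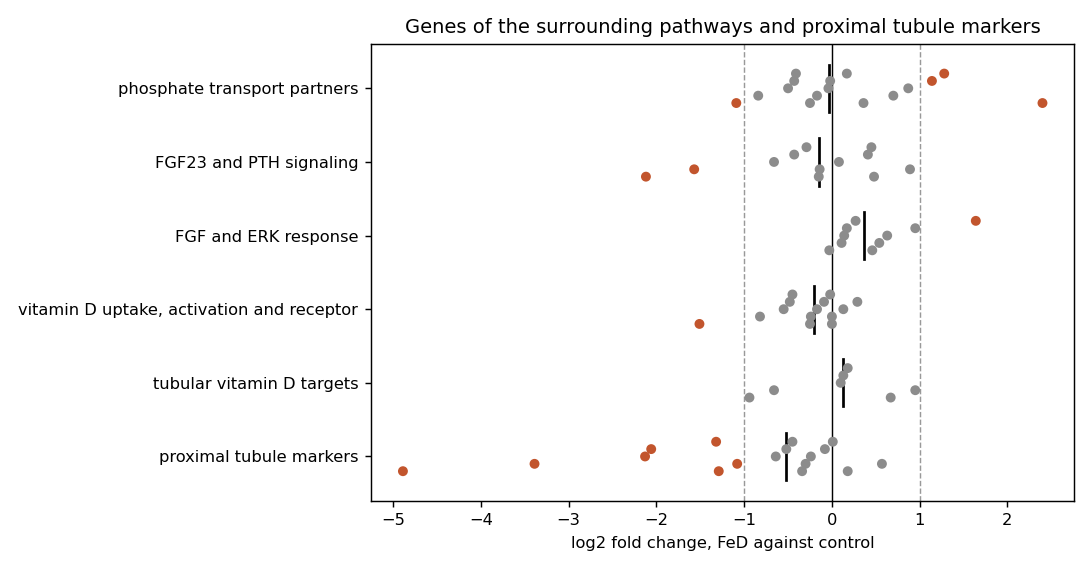
Each point is 1 tested gene, placed by its log2 fold change in FeD against control kidneys, with the list median as a black bar and dashed lines at a 2-fold change; orange points were called at an adjusted P under 0.05 and 2-fold. Pathway lists centre between -0.20 and 0.37, whereas the proximal tubule markers centre at -0.52 with a tail to -4.89.

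Most of the 10 genes are expressed in the proximal tubule, so markers of this segment were measured beside them. Of 17 proximal tubule markers, 7 were called lower and 0 higher by edgeR at 2-fold, against 5.69% and 4.34% of all tested genes. By adjusted P only, 10 were lower, 1 was higher and 6 did not pass, against 23.3% lower and 22.4% higher among all tested genes. The median log2 fold change was -0.52, and their summed normalized counts were 171000 to 184700 in control and 108000 to 114700 in FeD kidneys. None was at 0. The largest fall was that of Slc5a2, the glucose transporter SGLT2, from 6436 ± 290.9 to 215.6 ± 51.0 (SD, n = 3 each; log2 fold change -4.89, adjusted P = 3.3e-06, edgeR). Slc13a3, a dicarboxylate transporter, fell by 2.13 on the log2 scale (adjusted P = 8.9e-06, edgeR). In contrast, Slc27a2 (0.01, adjusted P = 0.93), Slc5a12 (0.18, adjusted P = 0.33), Slc3a1 (-0.08, adjusted P = 0.66) and Hnf4a (-0.24, adjusted P = 0.19) did not pass the edgeR test, and the bicarbonate transporter Slc4a4 rose by 0.57 (adjusted P = 0.0015). Slc34a1 fell by more than all but 2 of the 17 markers and Slc34a3 by more than all but 1, whereas Kl was passed by 4 and Pdzk1 by 6. Cyp27b1, Cyp27a1 and Cyp24a1 were above the whole marker range. Of 8 thick limb and distal tubule markers, Slc12a3, Klk1 and Pvalb also fell by more than Kl (log2 fold changes -1.56, -1.43 and -5.08 against -1.4). The other 5 were not called. The part of the segment markers in these falls was not tested.

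Markers of other cells included both higher and lower genes. At 2-fold, where 4.34% of all tested genes were called higher and 5.69% lower by edgeR, 3 of 8 thick limb and distal tubule markers were lower and 0 higher. Slc12a3 had a log2 fold change of -1.56, Pvalb of -5.08 and Klk1 of -1.43 (adjusted P = 0.00026, 5.9e-05 and 0.0067, edgeR). The thick limb genes Umod (-0.4), Slc12a1 (0.13), Cldn16 (0.08) and Kcnj1 (-0.29) did not pass (adjusted P = 0.065, 0.59, 0.64 and 0.11, edgeR). Neither did Trpm6 (-0.59, adjusted P = 0.066, edgeR). The summed normalized counts of this list were 166900 to 178200 in control and 99120 to 163600 in FeD kidneys. Of 6 collecting duct markers, 2 were called higher (the water channels Aqp2 and Aqp3, log2 fold changes 1.13 and 1.10) and 1 lower (Slc4a1, -1.42). The higher calls fell to 0 without FeD kidney 3 and to 1 without control kidney 1. On adjusted P alone 3 of the 6 were higher and 3 lower, against 22.4% and 23.3% of all tested genes. Atp6v1b1 and Avpr2 were lower by less than 2-fold (-0.30 and -0.67, adjusted P = 0.013 and 0.031, edgeR). Foxi1 was higher by less than 2-fold (0.39, adjusted P = 0.014, edgeR). Among 5 macrophage markers Cd68 and Itgam were called higher (1.11 and 1.37), but Csf1r was lower (-0.45, adjusted P = 0.006, edgeR), and without control kidney 3 only 1 call was made. Among 8 endothelial and stromal markers Col3a1 was called lower (-1.05), a call that was lost without FeD kidney 1. By adjusted P only, 2 genes of that list were higher and 5 lower, against 22.4% and 23.3% of all tested genes. The higher genes were Pdgfrb and Pdgfra (0.59 and 0.60, adjusted P = 0.003 and 0.039, edgeR), and Col1a1 was among the lower (-0.81, adjusted P = 0.0012, edgeR). Of 5 podocyte markers 0 were called by edgeR at 2-fold, and Wt1 was higher on adjusted P alone (0.73, adjusted P = 0.02). Of 2 tested red cell markers 0 were called with all kidneys, and 1 was called lower without control kidney 1 or FeD kidney 1. Summed normalized counts of the collecting duct markers were 22190 to 31420 in control and 30520 to 52960 in FeD kidneys, and those of the macrophage markers 1793 to 1887 and 1627 to 1787. Endothelial and stromal markers summed to 39370 to 41430 in control and 25140 to 34220 in FeD, and podocyte markers to 13360 to 14410 and 10860 to 15280. The globin genes Hba-a1, Hba-a2, Hbb-b1 and Hbb-b2 were listed at 0 in every kidney. The part of these cell types in the values above was not tested.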

How the data were processed

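RNA was sequenced from 3 control and 3 FeD whole kidneys. The authors trimmed reads (Trimmomatic), aligned them to mm9 (TopHat2 2.0.11, after CASAVA 1.8.2), counted uniquely mapped reads per gene with HTSeq, and deposited raw counts without normalization or pooling. The annotation, counting mode and strand setting were not given in the sources used here. Reads on bases shared by genes on opposite strands may therefore have been left out or given to either gene.

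Groups and replicate numbers came from the labels. From the counts as deposited (24422 genes), edgeR 4.0.16 in R 4.3.3 kept 15145 genes by filterByExpr and scaled libraries by TMM. Its quasi-likelihood test compared FeD with control, and P values were adjusted by Benjamini-Hochberg over every tested gene. Normalized counts are counts divided by the effective library size (the total times its TMM factor) and multiplied by the mean library size. Calls required an adjusted P below 0.05 together with a 2-fold difference; SE was the log2 fold change divided by the square root of F. The procedure was tested on simulated data. Positions and exon lengths are from GENCODE vM1 (mm9), and promoters from RefSeq.

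The 10 genes and all lists were chosen with earlier results of these data known. From each list, up to 2 genes of smallest adjusted P in each direction were named, with a fixed set of receptors, carriers and vitamin D genes whatever their value. Slc34a2, Slc17a2, Xpr1, Lctl, Egr1, Rxrg, Dab2, Klk1, Avpr2 and Foxi1 were named after their values were seen. So were the 4 proximal markers and the 5 thick limb and distal tubule markers named as not passing. Counting intervals were not computed, and the floor of 3 counts covers counting error only. Alternatives were DESeq2 1.42.0, other scalings and filters, edgeR's test against a 2-fold change, no fold threshold, the replicate number as a block, and each kidney left out.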

Additional observations from a re-analysis of the deposited data

How the results depend on the processing

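Of 130 comparisons of the 10 genes with an alternative (13 each), 127 kept the direction and the call and none reversed. The setting without a fold threshold was not among these 13. Tested against a 2-fold change in edgeR, Pdzk1 was no longer called (log2 fold change -1.24, adjusted P = 0.11), the pathway and marker lists gave 1 gene higher and 8 lower (8 and 16 otherwise), and all tested genes gave 225 higher and 286 lower (657 and 862 otherwise). Without a fold threshold, 6 of the 10 genes counted as higher (2 with it), with 28 higher and 41 lower in the lists and 3397 higher and 3527 lower among all tested genes. Leaving out each kidney in turn gave 0.73 to 1.12 for Cyp24a1, which was called without FeD kidney 1 or FeD kidney 3. The same range was 3.18 to 3.93 for Cyp27b1, -5.19 to -4.23 for Slc34a3 and -2.32 to -2.12 for Slc34a1.

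Kidneys of the same number deviated from their group means with correlations of -0.16, 0 and -0.03. With 1 pair of kidneys per number, these values cannot tell whether kidneys of the same number shared a litter or batch. With the replicate block, the log2 fold changes were -2.23 for Slc34a1, -4.70 for Slc34a3, 3.50 for Cyp27b1 and 0.92 for Cyp24a1, 2 of the 10 genes were called higher and 4 lower, and no call among them changed. Low counts limit the precision of Slc34a3 in FeD kidneys, which rests on 14 to 40 reads a kidney.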
